A study of Mus musculus with 6 samples.

Results

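Expression of 10 genes of the fibroblast growth factor (FGF) pathway was examined in cells cultured from the oviducts of WT and Pbrm1 cKO mice. The labels call them primary oviductal muscle cells, and markers of other cell types were also detected. The genes were 4 secreted ligands (Fgf1, Fgf7, Fgf9 and Fgf10), 2 receptors (Fgfr1 and Fgfr2) and 4 intracellular feedback inhibitors (Spry1, Spry2, Spry4 and Dusp6). They were chosen by symbol, through the Ensembl identifiers of the deposited count table, with no threshold on their values, although earlier results of these data were known when they were picked. All 10 were found among the 54232 genes of the table, and all 10 passed the filter on low counts that left 15376 genes to test. Spry1 and Fgf1 rose in cKO cells, to 185% and 157% of the WT mean, and Fgf9 fell to 51.2%. Fgf7, Spry2 and Spry4 changed by smaller amounts, and Fgf10, Fgfr1, Fgfr2 and Dusp6 did not pass the test.

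FGF ligands bind receptor tyrosine kinases at the cell surface together with heparan sulfate. Docking proteins next to the receptor then switch on Ras and the ERK kinases, and ERK signaling induces its own inhibitors. Among these, the sprouty proteins act between the receptor and the kinases, while Dusp6 is a phosphatase that removes phosphate from ERK in the cytoplasm. In the reproductive tract FGFs are known as messengers between stroma and epithelium, and the study followed FGF genes in the uterus in connection with the transcription factor Hand2.

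The cells came from oviducts of mice aged 8 to 12 weeks on day 2 of pregnancy, with 3 libraries in each genotype. Pbrm1, whose product PBRM1 belongs to the chromatin remodeling complex SWI/SNF, was deleted in the cKO mice with a cre recombinase expressed from the progesterone receptor gene Pgr, so that deletion was directed to cells that express Pgr. The control mice are called WT in the labels, which name no strain. Both genotypes were treated alike: oviduct pieces were digested with trypsin, collagenase and dispase, and the filtered cells were cultured for 4 h in medium with 12% charcoal-stripped serum and for 2 h in medium with 10% serum. It is not stated in the labels whether 1 animal or several went into a library, and p-values therefore measure the spread between these libraries only.

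Libraries held 15390818 to 18947947 counts. Levels are given as CPM, counts scaled to a common library size after adjusting the library totals by the trimmed mean of M values (TMM). At this depth a count of 3 corresponded to 0.159 to 0.193 CPM, and every one of the 10 genes lay above that floor in every library. Pbrm1 was at 170, 183 and 172 CPM in WT and at 43.5, 50.7 and 42.7 CPM in cKO, which set the genotypes apart as labeled. Across all tested genes, 43.7% passed the test at a Benjamini-Hochberg adjusted p-value under 0.05 in edgeR, 21.9% higher and 21.8% lower in cKO. Of the 10 genes, 6 passed, 4 higher (Fgf1, Fgf7, Spry1, Spry2) and 2 lower (Fgf9, Spry4). DESeq2 called the same numbers of the 10, 4 higher and 2 lower, against 30.5% of the 17395 genes to which it gave an adjusted p-value. The median log2 fold change was 0.02 over the 10 genes and 0.00156 over all tested genes. For 7 of the 10, WT and cKO libraries occupied separate CPM ranges, as for 53.5% of all tested genes, and for 2 of these 7, Fgf7 and Fgfr1, the ranges were apart only beyond the printed precision.

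**Figure D1:**
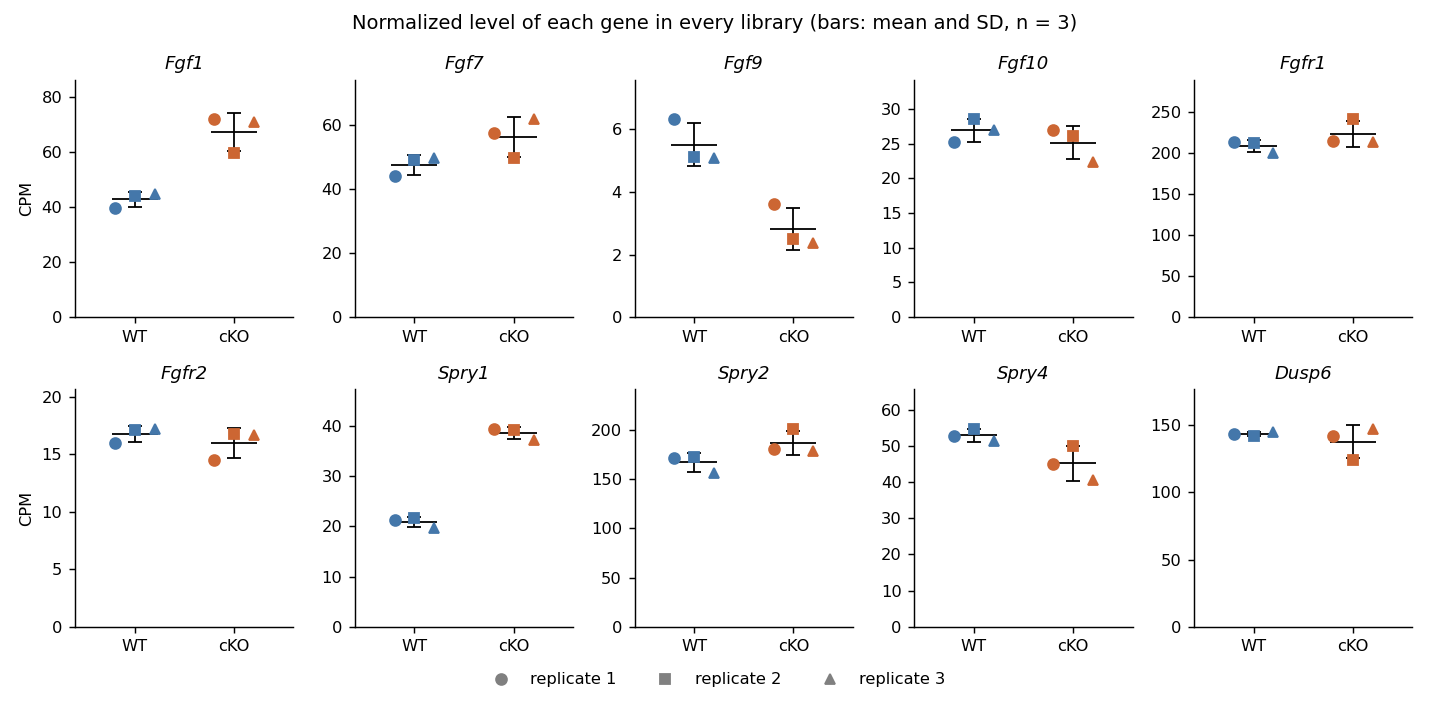
Normalized level (CPM, linear axis from 0) of each of the 10 genes in the 3 WT and 3 cKO libraries; each point is a library, its shape the replicate, and the bars give the mean and SD. The points of the genotypes are far apart for Fgf1, Fgf9 and Spry1, close for Fgf7, Fgfr1, Spry2 and Spry4, and overlap for Fgf10, Fgfr2 and Dusp6.

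Among the ligands, Fgf1 showed the clearest increase. Fgf1 (ENSMUSG00000036585.15, chromosome 18, 38838673 to 38929404, minus strand) encodes a ligand that can bind every FGF receptor. WT libraries 1, 2 and 3 held it at 39.7, 44.2 and 44.7 CPM and the cKO libraries at 72.0, 59.6 and 71.0 CPM. Each cKO library lay above each WT library, and cKO replicate 2 was the lowest of its group. The means rose from 42.9 ± 2.76 to 67.5 ± 6.91 CPM (SD, n = 3), a log2 fold change, cKO over WT, of 0.65 (SE 0.076, edgeR adjusted p = 1.32e-05). Among all tested genes, 13.6% changed by more. The call held under each of 14 alternative settings, with log2 fold changes from 0.60 to 0.74.

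Fgf7 encodes keratinocyte growth factor, a stromal product that acts on epithelium. Fgf7 (ENSMUSG00000027208.14, chromosome 2, 126034658 to 126091185, plus strand) gave 44.0, 49.1 and 49.5 CPM in WT and 57.4, 49.5 and 61.7 CPM in cKO. The lowest cKO library and the highest WT library were equal at the printed precision. On the log2 scale cKO exceeded WT by 0.24 (SE 0.077, 95% confidence interval 0.07 to 0.41, edgeR adjusted p = 0.0225). This call rested on single libraries: the adjusted p was 0.107 without WT replicate 1, 0.0749 without cKO replicate 1 and 0.0932 without cKO replicate 3. Fgf10, the ligand most closely related to Fgf7, acts on the same epithelial receptor form. Fgf10 (ENSMUSG00000021732.14, chromosome 13, 118669791 to 118792115, plus strand) gave 25.3, 28.5 and 26.9 CPM in WT and 26.9, 26.1 and 22.4 CPM in cKO. Its groups overlapped, and the log2 fold change of -0.10 (95% confidence interval -0.27 to 0.08) did not exceed the spread between replicates (edgeR adjusted p = 0.369).

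Fgf9 was the ligand that fell. Fgf9 (ENSMUSG00000021974.15, chromosome 14, 58070547 to 58112720, plus strand) encodes a ligand known to pass from epithelium and mesothelium to the mesenchyme beneath. It was the lowest of the 10 genes per length and rested on 37 to 107 counts per library, with 6.32, 5.13 and 5.09 CPM in WT and 3.60, 2.49 and 2.38 CPM in cKO. No cKO library reached the lowest WT library. The mean fell from 5.52 ± 0.699 to 2.82 ± 0.673 CPM (SD, n = 3), with a log2 fold change of -0.96 (SE 0.18, edgeR adjusted p = 0.000707). The call held under the 14 alternatives, and its log2 fold change ranged from -1.17 to -0.85, the widest range among the 10 genes.

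The receptors did not differ beyond the spread between replicates. Fgfr1 (ENSMUSG00000031565.18, chromosome 8, 25513654 to 25575718, plus strand), the FGF receptor typical of mesenchymal cells, was at 213, 212 and 200 CPM in WT and at 215, 241 and 213 CPM in cKO. The groups met at 213 CPM at the printed precision, with cKO replicate 2 the highest library. The log2 fold change was 0.10, with a 95% confidence interval of -0.01 to 0.22 (edgeR adjusted p = 0.140). Fgfr2 (ENSMUSG00000030849.18, chromosome 7, 130162451 to 133123350, minus strand) encodes the receptor whose epithelial splice form binds Fgf7 and Fgf10. It was at 16.0, 17.1 and 17.2 CPM in WT and at 14.5, 16.8 and 16.7 CPM in cKO, and the groups overlapped. Its log2 fold change was -0.07 (95% confidence interval -0.25 to 0.12, edgeR adjusted p = 0.557) and stood at 0.0007 without cKO replicate 1. Counts were summed over all exons of a gene, so that the epithelial and mesenchymal splice forms of the receptors were not told apart. The interval of Fgfr1 includes a change of the size seen for Spry2, and that of Fgfr2 one of the size seen for Spry4.

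The 4 feedback inhibitors did not move together. Spry1 rose most of all 10 genes, Spry2 rose slightly, Spry4 fell and Dusp6 did not pass the test. Spry1 (ENSMUSG00000037211.12, chromosome 3, 37639947 to 37644598, plus strand) gave 21.3, 21.6 and 19.7 CPM in WT and 39.4, 39.1 and 37.3 CPM in cKO. Libraries of a genotype lay close together and far from those of the other. The mean rose from 20.9 ± 1.04 to 38.6 ± 1.11 CPM (SD, n = 3), with a log2 fold change of 0.89 (SE 0.066, edgeR adjusted p = 2.53e-07). Of all tested genes, 8.1% changed by more. The call held under the 14 alternatives, and its log2 fold change ranged from 0.84 to 0.91.

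Spry2 (ENSMUSG00000022114.5, chromosome 14, 105891947 to 105896819, minus strand) gave 172, 173 and 156 CPM in WT and 181, 201 and 179 CPM in cKO. The groups did not overlap, but the gap between them was smaller than the range within either. On the log2 scale cKO exceeded WT by 0.16 (SE 0.056, 95% confidence interval 0.04 to 0.28, edgeR adjusted p = 0.0314), and 60.6% of tested genes changed by more. The adjusted p was 0.157 without WT replicate 3 and 0.0784 without cKO replicate 2. Spry4 (ENSMUSG00000024427.6, chromosome 18, 38586268 to 38601268, minus strand) gave 52.7, 54.7 and 51.3 CPM in WT and 44.9, 50.1 and 40.5 CPM in cKO. Here the cKO libraries lay below the WT libraries, with cKO replicate 2 nearest to them. Spry4 had a log2 fold change of -0.22 (SE 0.071, 95% confidence interval -0.38 to -0.07, edgeR adjusted p = 0.0206). The adjusted p was 0.0505 without WT replicate 1, 0.0803 without WT replicate 2, 0.0635 without cKO replicate 1 and 0.0825 without cKO replicate 3.

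Dusp6 is widely used as a readout of ERK signaling because ERK induces it. Dusp6 (ENSMUSG00000019960.8, chromosome 10, 99263231 to 99267489, plus strand) gave 143, 142 and 145 CPM in WT and 142, 124 and 147 CPM in cKO. WT libraries were tightly grouped, and the cKO libraries lay on both sides of them. The log2 fold change was -0.06 (95% confidence interval -0.18 to 0.07, edgeR adjusted p = 0.439), and it was 0.02 without cKO replicate 2. Among tested genes, 84.7% changed by more than Dusp6.

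**Figure D2:**
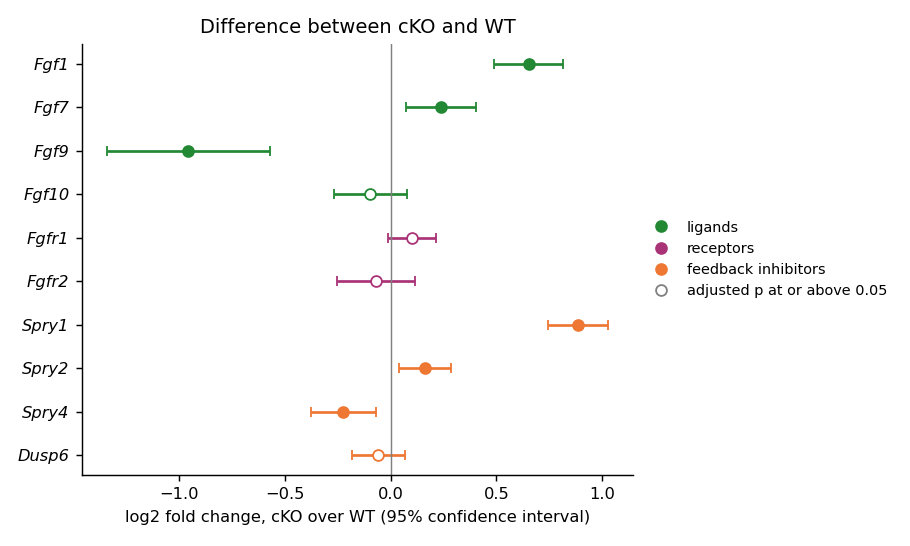
Log2 fold change (cKO over WT, horizontal axis) of the 10 genes with its 95% confidence interval, colored by role; open points did not pass the edgeR test at an adjusted p of 0.05. Fgf9 has the widest interval, Spry1 lies highest at 0.89, and the 4 open points have intervals that include 0.

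Levels of different genes were compared per kilobase of exon (RPKM, the CPM divided by the exon length that featureCounts gave). In WT cells the mean level fell in the order Spry2 (80.1 RPKM), Dusp6 (45.7), Fgfr1 (21.1), Fgf7 (14.6), Spry4 (11.5), Fgf1 (9.23), Spry1 (7.18), Fgf10 (5.85), Fgfr2 (1.62) and Fgf9 (1.19), and no neighbors in this order overlapped between libraries. In cKO cells Fgf1, at 14.5 ± 1.49 RPKM, and Spry1, at 13.3 ± 0.383 RPKM, stood above Spry4, at 9.85 ± 1.05 RPKM (SD, n = 3). There the values of Fgf1 overlapped those of Fgf7 above it, and the values of Spry1 overlapped those of Fgf1. The other places in the order were those of WT cells.

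**Figure D3:**
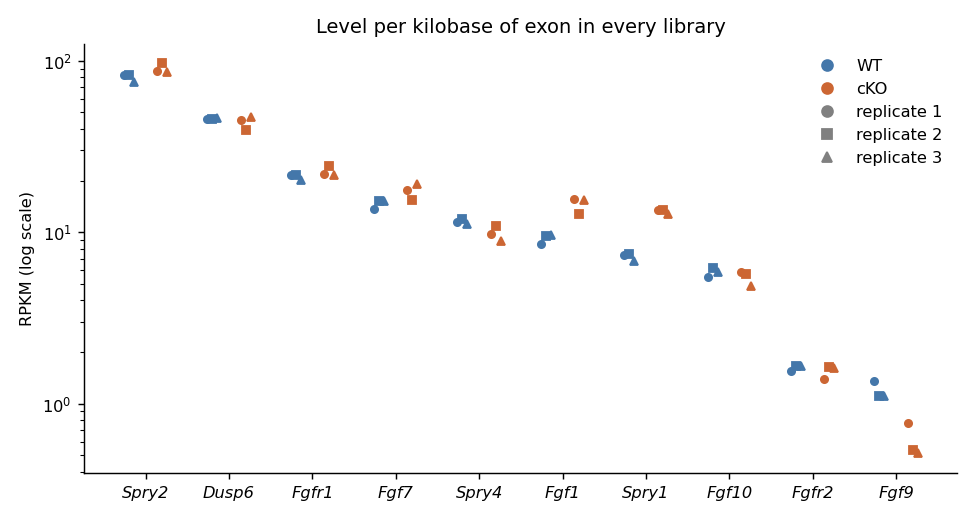
Level per kilobase of exon (RPKM, log axis) of the 10 genes in every library, ordered by the WT mean, with WT and cKO libraries side by side and the point shape giving the replicate. Spry2 lies near 80.1 and Fgf9 near 1.19 RPKM in WT, and Fgf1 and Spry1 pass Spry4 in cKO.

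The make-up of each role was also compared per length, as ratios with no test. Spry1 made up 7.25%, 7.27% and 7.29% of the summed RPKM of Spry1, Spry2 and Spry4 in WT libraries and 12.3%, 11.1% and 11.9% in cKO libraries. The ratio of Spry1 to Spry4 was 0.639, 0.623 and 0.605 in WT and 1.38, 1.23 and 1.45 in cKO, so that Spry4 was the more abundant in every WT library and Spry1 in every cKO library. Spry2 had the highest RPKM of the 3 in every library. Among the ligands, the ratio of Fgf7 to Fgf10 was 2.47, 2.44 and 2.60 in WT and 3.02, 2.69 and 3.90 in cKO. Fgf1 exceeded Fgf9 by 7.89 ± 1.40 times in WT and by 24.6 ± 4.93 times in cKO (n = 3, SD). The ratio of Fgfr1 to Fgfr2 was 13.0 ± 0.849 in WT and 14.7 ± 1.12 in cKO, with overlap between the groups.

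Seen against the other ligands, the 4 genes together held less of the FGF message than Fgf2. Fgf2, which is not one of the 10 genes, had mean levels of 69.4 RPKM in WT and 70.9 RPKM in cKO, far above any of the 4, and its CPM had a log2 fold change of 0.03 (95% confidence interval -0.06 to 0.13, edgeR adjusted p = 0.611). Over the 9 tested ligands other than the intracellular ones, Fgf2 made up 63.5% ± 0.466 of the summed RPKM in WT and 60.6% ± 1.67 in cKO (n = 3, SD). The share of Fgf1 was 8.44% ± 0.394 and 12.4% ± 1.42, and that of Fgf9 was 1.09% ± 0.160 and 0.520% ± 0.125, in WT and cKO in turn. For Fgf7 the shares of 13.4% ± 0.625 and 14.8% ± 1.83 overlapped between the groups. Fgf10 held 5.35% ± 0.280 in WT and 4.67% ± 0.410 in cKO without overlap, although its level did not pass the test.

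Start-site sequence was compared for the feedback inhibitors that differed in response and for Fgf9, to show how unlike these windows are. RefSeq gave windows of 300 bases, 250 before and 50 after the annotated start, for 7 of the 10 genes (Fgf7, Fgf9, Fgf10, Fgfr2, Spry1, Spry2 and Dusp6). Coordinates are those of GRCm38.p6. The Spry1 window was chr3:37639697-37639996 on the plus strand, the Spry2 window chr14:105896770-105897069 on the minus strand, the Dusp6 window chr10:99262981-99263280 on the plus strand and the Fgf9 window chr14:58072436-58072735 on the plus strand. The start used for the windows of Spry1, Spry2 and Dusp6 was the first base of the gene as counted. For Fgf9 it was a RefSeq start inside the gene. Sequences read 5′ to 3′ along the gene, and capitals mark the core letters of the ETS factor motif, GGAA on the printed strand or TTCC for a match on the other strand.
Spry1: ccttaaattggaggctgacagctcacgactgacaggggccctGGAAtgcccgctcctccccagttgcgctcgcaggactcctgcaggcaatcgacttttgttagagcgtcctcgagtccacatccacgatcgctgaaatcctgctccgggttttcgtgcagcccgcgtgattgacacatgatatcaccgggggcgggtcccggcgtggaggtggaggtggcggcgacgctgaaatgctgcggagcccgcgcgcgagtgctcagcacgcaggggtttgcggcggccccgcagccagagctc
Spry2: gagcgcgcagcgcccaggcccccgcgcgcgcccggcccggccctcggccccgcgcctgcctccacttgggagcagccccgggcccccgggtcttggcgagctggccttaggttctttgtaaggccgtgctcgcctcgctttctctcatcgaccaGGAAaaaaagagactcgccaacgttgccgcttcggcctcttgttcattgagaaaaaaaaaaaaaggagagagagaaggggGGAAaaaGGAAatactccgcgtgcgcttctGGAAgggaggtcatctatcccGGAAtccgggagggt
Dusp6: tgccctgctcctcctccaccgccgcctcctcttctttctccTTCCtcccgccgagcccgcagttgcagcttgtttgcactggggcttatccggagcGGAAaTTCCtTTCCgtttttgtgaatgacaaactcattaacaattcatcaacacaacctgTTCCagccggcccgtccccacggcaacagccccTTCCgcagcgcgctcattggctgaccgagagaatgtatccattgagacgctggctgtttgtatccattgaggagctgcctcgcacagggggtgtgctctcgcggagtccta
Fgf9: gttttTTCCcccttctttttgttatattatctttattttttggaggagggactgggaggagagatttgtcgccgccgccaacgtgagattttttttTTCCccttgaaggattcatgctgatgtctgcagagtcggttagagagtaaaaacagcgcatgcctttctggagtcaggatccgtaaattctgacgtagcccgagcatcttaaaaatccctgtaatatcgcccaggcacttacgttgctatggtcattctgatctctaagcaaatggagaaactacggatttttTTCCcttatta

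Over both strands, the letters GGAA occurred in 1 copy in the Spry1 window, against 5 copies for Spry2, 6 for Dusp6 and 3 for Fgf9. Fgf7 and Fgfr2 had 4 copies each and Fgf10 had 3. A match to these letters is common: 96.0% of 32851 RefSeq promoter windows of the same length held at least 1, with a median of 3. The longer form CCGGAA was found in the Spry2 window only, where it includes 1 of the GGAA copies, and in 14.9% of all windows. The AP-1 letters TGANTCA were found in none of the 7 windows and in 7.8% of all windows. CATCTG, a form of the E-box, occurred in the windows of Fgf10 and Fgfr2 and in 17.2% of all. The GC content was 64.3% for Spry1, 62.7% for Spry2, 57.3% for Dusp6 and 42.7% for Fgf9, beside a median of 52.7%. These matches describe the letters in the windows and are not evidence of binding.

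The rest of the pathway was described with lists of its known genes. Beyond the 10 genes, 80 of 93 listed genes were tested, of which 46 (57.5%) passed, 17 higher and 29 lower, beside 43.7% of all tested genes (21.9% higher and 21.8% lower). Their median log2 fold change was -0.04. Among 18 other ligands, 7 were tested, 1 was higher and 2 were lower. Fgf11, an intracellular member of the family, had a log2 fold change of 1.07, from 0.682 to 1.46 CPM (edgeR adjusted p = 0.0115). Fgf12, also intracellular, had one of -0.78, from 1.98 to 1.14 CPM (edgeR adjusted p = 0.0180). Fgf5, which was named after its values were seen because it completes the count, was at 1.65, 1.66 and 0.761 CPM in WT and at 0.562, 0.477 and 0.257 CPM in cKO (log2 fold change -1.62, edgeR adjusted p = 0.00433). All 3 had low counts, between 9 and 28 per library for Fgf11, 14 and 39 for Fgf12 and 4 and 31 for Fgf5. The calls of Fgf11 and Fgf12 were lost with DESeq2 (adjusted p = 0.0619 and 0.0983), without WT replicate 1 (edgeR adjusted p = 0.0531 and 0.0788) and without cKO replicate 3 (0.0509 and 0.0701), which left 1 ligand called in each case. Fgf4, Fgf6 and Fgf20 had no count in any library.

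Of the other receptors and their adaptors, 15 of 17 were tested, and 2 were higher and 7 lower in cKO (60.0% called, against 43.7% of all tested genes, and a median log2 fold change of -0.17). The adaptor Shc1 and the phospholipase Plcg1, which bind active receptors, had log2 fold changes of 0.23 and 0.24. Fgfrl1, a receptor that lacks the kinase domain, fell from 32.0 ± 1.15 to 24.5 ± 1.17 CPM, by 0.38 on the log2 scale (SD, n = 3; edgeR adjusted p = 0.000448). Flrt2, a membrane protein that associates with FGF receptors, and Sos1, which loads Ras with GTP, fell by 0.29 and 0.24 on the log2 scale. The related Flrt1 and Flrt3 and the receptor Fgfr3 also passed, with log2 fold changes of -0.35, -0.33 and -0.45. Those 3 calls were not stable. On leaving out 1 library, the edgeR adjusted p rose to as much as 0.154 for Flrt1, 0.0575 for Flrt3 and 0.131 for Fgfr3. The calls were lost in 5, 1 and 4 of the 6 such fits. All 3 were also lost with DESeq2 (adjusted p = 0.156, 0.0627 and 0.146 in turn). That of Flrt1 was lost with limma-voom (adjusted p = 0.0588) and with scaling by library size only (edgeR adjusted p = 0.056) as well. The docking protein Frs2, which carries the signal of Fgfr1 and Fgfr2, had a log2 fold change of -0.10 (95% confidence interval -0.23 to 0.03, edgeR adjusted p = 0.215).

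In the Ras and ERK cascade all 13 listed genes were tested, and 2 were higher and 3 lower (median log2 fold change -0.03). This share, 38.5%, was below the 43.7% of all tested genes. Ksr1, a scaffold that holds the kinases together, rose from 21.5, 18.7 and 21.3 CPM in WT to 36.6, 37.1 and 34.4 CPM in cKO (log2 fold change 0.82, SE 0.073, edgeR adjusted p = 1.21e-06). The GTPase Hras fell by 0.29 on the log2 scale (edgeR adjusted p = 0.000539). Rps6ka1, a kinase activated by ERK, had a log2 fold change of 0.26, but its edgeR adjusted p was 0.0983 without WT replicate 3 and 0.113 without cKO replicate 1. Its call was also lost with DESeq2.

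Of the other feedback inhibitors, 12 were tested, and 7 were lower and 3 higher (median log2 fold change -0.16), where 21.8% of all tested genes were lower and 21.9% higher. The balance of directions was not tested. Dusp9, an ERK phosphatase of the same family as Dusp6, was at 11.5, 10.9 and 11.5 CPM in WT and at 4.50, 5.73 and 5.47 CPM in cKO, well apart. Dusp9 had a log2 fold change of -1.11 (SE 0.12, edgeR adjusted p = 5.16e-06), larger in size than that of any of the 10 genes. Dusp7 and the ubiquitin ligase Cblb fell by 0.33 and 0.26 on the log2 scale, and Spred3, a relative of the sprouty genes, rose by 0.41. Weaker calls were those of Cbl (log2 fold change -0.32), Il17rd (-0.29), Dusp4 (-0.18) and Spry3 (0.75), for which the edgeR adjusted p reached 0.0726, 0.140, 0.159 and 0.146 when 1 library was left out. Spry3 and Il17rd were also lost with DESeq2 (adjusted p = 0.201 and 0.197) and in the fit blocked by replicate number (edgeR adjusted p = 0.0508 and 0.0570). The number called fell from 10 to 5 without WT replicate 1 or cKO replicate 1 and to 6 without WT replicate 2 or cKO replicate 3. With DESeq2 it was 7, 6 lower and 1 higher, and with the block it was 8, 6 lower and 2 higher.

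Genes that ERK signaling is known to induce made up the next list. All 11 were tested, and 7 were higher and 1 lower in cKO, where 21.9% of all tested genes were higher and 21.8% lower. The median log2 fold change was 0.35. The ETS factors Etv4 and Etv5, used like Dusp6 as readouts of FGF signaling, were at 10.8, 10.7 and 9.89 CPM and at 21.0, 19.0 and 19.3 CPM in WT, against 13.3, 14.6 and 13.1 CPM and 30.8, 29.4 and 26.5 CPM in cKO. Neither gene showed overlap between the groups, and the log2 fold changes were 0.39 (SE 0.093, edgeR adjusted p = 0.00394) and 0.55 (SE 0.078, edgeR adjusted p = 7.15e-05). Fos rose by 0.85, Ier3 by 0.43, Ccnd1 by 0.35 and Egr1 by 0.28 on the log2 scale, while Myc fell by 0.38. The call of Etv1 (log2 fold change 0.64, 1.31 to 2.04 CPM) was lost with DESeq2 (adjusted p = 0.182), with no filter on low counts (edgeR adjusted p = 0.050) and in 4 of the 6 fits without 1 library, with an edgeR adjusted p of up to 0.109. Fos, Egr1 and other immediate-early genes are also induced when tissue is dissociated. Of 9 genes known for that response, 4 were higher and 1 lower in cKO, and their summed level ranged from 414 to 483 CPM in WT and from 495 to 532 CPM in cKO. Without Fos the sums overlapped, at 384 to 447 CPM in WT and 441 to 471 CPM in cKO. The part of dissociation in these values was not tested.

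Heparan sulfate enzymes, its core proteins and FGF carriers made up the last list. All 22 were tested, with 2 higher and 9 lower (median log2 fold change 0.01). These were 11 of 22, against 43.7% of all tested genes. Fgfbp1, a carrier that releases FGFs from the matrix, fell from 2.36, 2.09 and 2.46 CPM in WT to 0.394, 0.265 and 0.515 CPM in cKO (log2 fold change -2.56, SE 0.29, edgeR adjusted p = 1.11e-05). Fgfbp1 rested on 5 to 42 counts per library and was not tested under the filter of at least 10 counts in every library. The sulfotransferases Hs6st2 and Hs3st1 fell by 0.78 and 0.57 on the log2 scale, the glypican Gpc1 by 0.49, the chain polymerase Ext1 by 0.30 and the syndecan Sdc1 by 0.25. In contrast, the syndecan Sdc4 and the epimerase Glce rose by 0.38 and 0.28. The mean of Sdc4 went from 1086 ± 25.0 to 1414 ± 185 CPM (SD, n = 3).

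**Figure D4:**
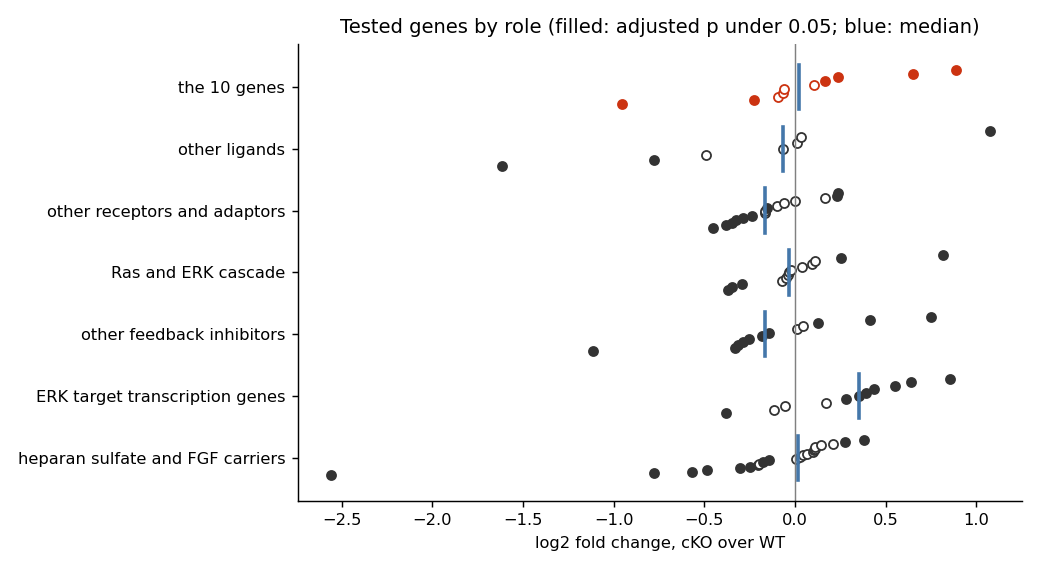
Log2 fold change (cKO over WT, horizontal axis) of every tested pathway gene by role; each point is a gene, filled where the edgeR adjusted p is under 0.05, and the blue line is the median of the list. The medians are 0.35 for the ERK target genes, -0.16 for the other feedback inhibitors and 0.02 for the 10 genes, which lie on both sides of 0.

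Markers of the cell types that such a preparation can hold were examined beside these results, again against 43.7% of all tested genes called. Smooth muscle markers summed to 3654 to 3735 CPM in WT and 4609 to 5211 CPM in cKO, and 6 of 10 were higher and 1 lower. Most of the WT sum came from Tagln and Acta2, with WT means of 1598 and 1287 CPM. The WT means of the others ran from 4.6 CPM for Myocd to 239 CPM for Des. Without Tagln, which moved the sum most, it was 2055 to 2140 CPM in WT and 2675 to 3160 CPM in cKO. Fibroblast markers summed to 3460 to 4039 CPM in WT and 4619 to 5061 CPM in cKO, with 4 of 7 tested higher and 1 lower. Without Pdgfra, which moved that sum most, the ranges overlapped, at 2721 to 3299 CPM in WT and 3287 to 3786 CPM in cKO. Most of this remaining sum was Col1a1, which was not called (2264 to 2860 CPM in WT, 2499 to 3069 CPM in cKO). Dcn (mean 266 to 502 CPM), Lum (90.4 to 146 CPM) and Cd34 (30.7 to 65.7 CPM) were also called higher in cKO, without overlap. Dpt was called lower (53.5 to 34.0 CPM). Epithelial markers summed to 1036 to 1129 CPM in WT and 1211 to 1351 CPM in cKO, with 7 of 13 higher and 0 lower, and 4 of 13 called without WT replicate 1. All 8 leukocyte markers were higher in cKO, from 706 to 757 CPM in WT to 1045 to 1136 CPM in cKO. Endothelial markers summed to 335 to 352 CPM in WT and 267 to 277 CPM in cKO, with 1 of 7 higher and 1 lower. That drop was carried by Kdr alone, since the other 6 summed to 161 to 166 CPM in WT and 164 to 179 CPM in cKO. Mesothelial markers summed to 251 to 262 CPM in WT and 180 to 181 CPM in cKO, with 4 of 6 lower and 0 higher. No marker was at 0 in every library. The part of cell composition in the changes of Fgf1, Fgf9, Spry1 and the other genes was not tested, and in these bulk libraries fewer cells of a type and less RNA per cell cannot be told apart.

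Hand2 was at 11.6, 11.9 and 10.2 CPM in WT and at 7.87, 8.01 and 9.39 CPM in cKO. Beside it, the 4 ligands among the 10 genes were lower (Fgf9), higher (Fgf1, Fgf7) or not called (Fgf10). In uterine stromal cells, the study had reported more Fgf1, Fgf7, Fgf16, Fgf17, Fgf18 and Fgf21 mRNA without Pbrm1. In these oviduct libraries, Fgf16, Fgf18 and Fgf21 had log2 fold changes of -0.07, 0.01 and -0.49. None of these passed the test (edgeR adjusted p = 0.854, 0.967 and 0.187 in turn). Fgf17 held 0 to 3 counts per library and was not tested. Hand2 had a log2 fold change of -0.42 (edgeR adjusted p = 0.00658), with a cKO mean at 75.0% of the WT mean. From browser tracks, the study had described Hand2 transcription in oviductal smooth muscle cells as comparable between the genotypes. Pgr, the gene that carries the cre, had one of -0.05 (95% confidence interval -0.17 to 0.07, edgeR adjusted p = 0.508), and its adjusted p was 0.036 without cKO replicate 2.

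Reads could be shared with other genes for few of the 10. Exons of Fgfr2 overlapped those of Ctbp2 on the same strand over 314 bases, 3.04% of its exon length, where reads were assigned to neither gene. On the opposite strand, which was counted separately, Spry1 overlapped Gm42922 over 24.4% of its exon length, but Gm42922 was at no more than 0.129 CPM in any library. In a search of the annotated transcripts, matches of at least 95% identity over at least 100 bases to another gene were found for Fgfr1 (5 genes), Fgfr2 (Ctbp2) and Spry1 (Gm42922), and for none of the other 7.

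**Figure D5:**
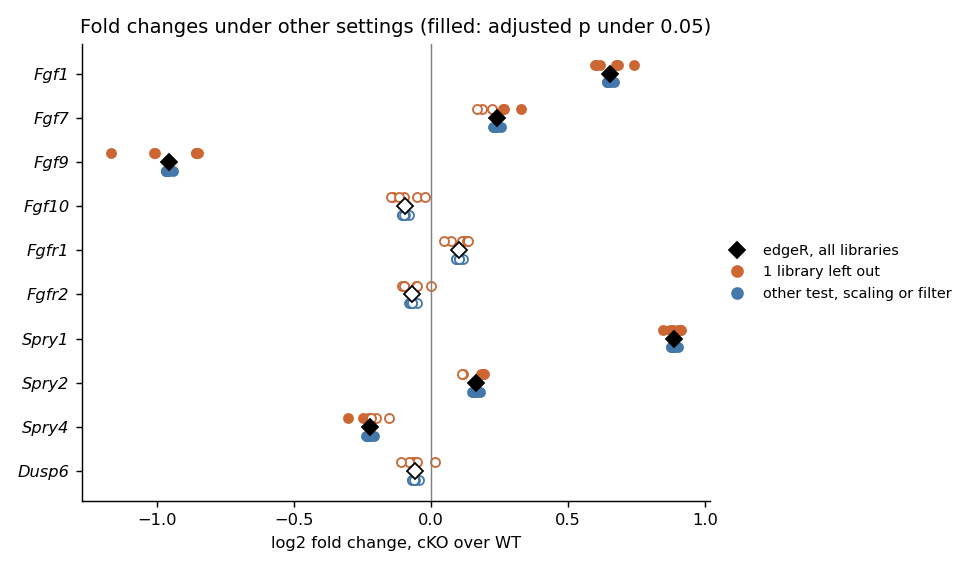
Log2 fold change (cKO over WT) of the 10 genes in edgeR with all libraries (black diamond), with 1 library left out (orange) and with another test, scaling or filter (blue); filled points have an adjusted p under 0.05. Fgf1, Fgf9 and Spry1 stay filled throughout, the open points of Fgf7, Spry2 and Spry4 are all fits without 1 library, and the 4 other genes are open throughout.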

How the data were processed

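RNA-seq libraries of primary oviductal muscle cells, as labeled, were analyzed from the table of read counts that the authors deposited. They comprised 3 WT and 3 Pbrm1 cKO libraries, grouped by genotype label. Total RNA had been primed with random and poly(T) primers, made into strand-selected libraries and depleted of targeted transcripts. Per the submitters' processing notes, cutadapt, HISAT2, featureCounts and the build GRCm38.p5 were used; per the file headers, featureCounts 1.6.4 counted exon reads in reverse-stranded mode without reads shared by several genes on a strand or places. Every column was matched to a sample. Of 54232 gene identifiers, 99.9% were given a symbol from GENCODE M21.

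Counts were tested with edgeR 4.0.16 in R 4.3.3 (TMM scaling, filterByExpr by group, quasi-likelihood F-test, two-sided) with Benjamini-Hochberg adjustment over all 15376 genes tested and a threshold of 0.05. The SE was the log2 fold change divided by the root of F, and intervals used the median of 13.5 degrees of freedom. Scripts were tested on simulated data. The coefficient of variation between replicates was 5.32%, and every pair of replicates differed beyond sampling noise (chi-square per gene 1.31 to 1.60). Floors cover counting error only, since reads carried no molecular identifiers. Alternatives were DESeq2 1.42.0 (the study's tool for its own libraries), limma-voom (limma 3.58.1), 3 other scalings, 2 other filters, the replicate number as a block, leaving out each library, and a threshold of 0.01. Sequence matches were searched with BLAST 2.17.0.

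The 10 genes and all gene lists were chosen with earlier results of these data known. Genes named from a list had an adjusted p-value under 0.05 and a mean of at least 1 CPM, up to the 8 with the largest change in each list. Fgf2, Fgf5, Fgf16, Fgf17, Fgf18, Fgf21 and Frs2 were named outside this rule, after their values were seen. Some genes that met the rule are not reported here. Composition markers were given as counts and sums. Single smooth muscle and fibroblast levels, the recalculation under the alternatives and the sums without the gene that moved each most were added after seeing the data. No protein sequences and, for Fgf1, Fgfr1 and Spry4, no promoter windows were used here.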

Additional observations from a re-analysis of the deposited data

How the results depend on the processing

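The calls of Fgf1, Fgf9, Spry1, Pbrm1 and Hand2 held under the 14 alternative settings at a threshold of 0.05, and Fgf10 and Fgfr1 were called under none of them. Fgf7, Spry2 and Spry4 kept their call under the 8 settings that used all libraries, and leaving out 1 library gave edgeR adjusted p-values of 0.000573 to 0.107 for Fgf7, 0.0205 to 0.157 for Spry2 and 0.00118 to 0.0825 for Spry4. The log2 fold changes of Fgfr2 and Dusp6 turned to 0.0007 and 0.0158 without cKO replicates 1 and 2, with adjusted p-values of 0.996 and 0.797, and over all such fits their adjusted p-values ranged from 0.379 to 0.996 and from 0.156 to 0.797; neither was called under any setting. Of the 10 genes, 4 to 5 were called without 1 library and 3 (Fgf1, Spry1 and Fgf9) at a threshold of 0.01. At that threshold 1 of the other ligands, 5 of the receptors and adaptors and 4 of the other feedback inhibitors were called. The number of other ligands called was 1 with DESeq2 and with a minimum of 10 counts in every library, and 1 to 3 without 1 library; for the other feedback inhibitors it was 5 to 9 without 1 library. Among 40 other genes tested under the alternatives, 28 kept their side of the threshold under each one that tested them, and none changed direction. Of these 28, Fgfbp1 was not tested with a minimum of 10 counts in every library. Over all genes, the median of the log2 fold changes was at most 0.0174 under any scaling or test.

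Replicate numbers were shared between the genotypes in the labels. The deviations of same-numbered libraries from their group means correlated at -0.0243, 0.0353 and 0.0928. These low correlations gave no clear sign that the numbers pair the samples, but they cannot exclude it. With the replicate number as a block, 6908 of all genes were called, of which 6617 were also called without the block, and 6 of the 10 genes were called, 4 higher and 2 lower. The block ended the calls of Spry3 and Il17rd. Depth limits statements on Fgf9, Fgf5, Fgf11, Fgf12, Fgf16, Fgf17, Fgf21, Spry3, Etv1 and Fgfbp1, which rested on few counts. For Fgf7, Spry2 and Spry4 the limit is the 3 libraries per genotype.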
